A study of Rattus norvegicus with 6 samples.

Results

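The heat shock proteins and the J-domain proteins are the chaperones that keep other proteins folded, and their transcripts were followed here in the hippocampus of rats that had run for weeks at a mild or an intense pace. A probe was taken when its gene name on the array, without the endings "_predicted" and "_mapped", began with Hspa, Hspb, Hspc, Hspd, Hspe, Hsph, Hsp90 or Dnaj. The rule found 84 of the 41012 probes, for 54 gene names, and used no measured value. Families were set by the gene name alone. By family these were 22 probes of Hsp70, 1 of Hsp110, 6 of Hsp90, 8 of small heat shock proteins, 5 of Hsp60 and Hsp10, and 4, 11 and 24 of J-domain proteins of class A, B and C. The last 3 probes have names that the rule takes but belong to no chaperone family: Hspbp1 and Hspbap1, whose products bind heat shock proteins, and Hspa5bp1, today called Tmem132a.

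The rats were male Wistar rats, 11 weeks old at the start, before rearing and training, in 3 groups. CONT rats rested on the treadmill without running, ME rats ran at 15 m/min, below the lactate threshold, and IE rats ran at 40 m/min, above it. Training lasted 6 weeks, with 60 min a session and 5 sessions a week. Slight foot shocks were used while the running groups were accustomed to the treadmill, for longer in IE, and sometimes later in IE, so shocks and running intensity cannot be told apart. The paper also left out IE rats that refused to run, and this selection cannot be told apart from intensity either. RNA of 5 rats per group was pooled, and each pair of pools (ME vs CONT, IE vs CONT, IE vs ME) was hybridized to 2 arrays with the dyes Cy5 and Cy3 swapped. The paper's methods describe 1 pool for each group, while the sample records number the arrays of a swap as Pool 1 and Pool 2. The methods were followed, so each comparison was taken as 1 replicate, and the SD given with a ratio is that between the arrays of a swap. It holds dye and hybridization error and, if the records mean separate pools, also the difference between those pools. The arrays against CONT lie on 1 slide and those of IE vs ME on another, so slide and comparison cannot be told apart. The paper describes tissue collection 2 days after the last session and the sample records 24 or 36 h.

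Hsp70 proteins bind exposed stretches of unfolded chains and release them as they hydrolyse ATP. J-domain proteins bring them their clients and start the hydrolysis, and Hsp110 (Hsph1) helps to exchange the nucleotide. Hsp90 takes over clients that are nearly folded, such as steroid receptors and kinases, small heat shock proteins hold unfolded proteins without ATP, and Hsp60 (Hspd1) with its lid Hsp10 (Hspe1) encloses proteins inside mitochondria. In nerve terminals, Hsc70 (Hspa8) and the J-domain protein auxilin (Dnajc6) strip clathrin from vesicles. After heat or oxidative stress the factor Hsf1 binds heat shock elements before many of these genes, while BiP (Hspa5) and its partner p58IPK (Dnajc3) belong to the unfolded protein response of the endoplasmic reticulum.

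To show which members carry full matches to these response elements, promoters from RefSeq (GRCr8, 250 bases before to 50 after the start site) were searched on both strands. They were given for 43 of the 54 genes. The heat shock element was searched as GAANNTTCNNGAA or TTCNNGAANNTTC and was found for 5 of the 43, against 0.798% of all 33469 promoters. The endoplasmic reticulum stress element, searched as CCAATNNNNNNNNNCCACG or its reverse complement, was found for Hspa5 and Dnajc3, against 0.0657% of all promoters. Matches before the start site are printed below 5′ to 3′ on the gene's own strand, with the matching letters in capitals.
Hsph1 (chr12:10427324-10427352, plus strand): gccgcagaTTCTGGAAAGTTCtcctcagt
Hspa8 (chr8:50080451-50080479, plus strand): cggaacccTTCTGGAAGGTTCtaagacag
Hspa8 (chr8:50080293-50080321, plus strand): gcgagcgtGAAAGTTCCAGAAcgctgcgg
Hspe1 (chr9:64084254-64084282, plus strand): gcgctcggTTCTAGAACCTTCcggaaggc
Hspe1, an overlapping match (chr9:64084259-64084287, plus strand): cggttctaGAACCTTCCGGAAggccccgc
Hspa5 (chr3:38452968-38452996, plus strand): gttcaCCAATCGGAGGCCTCCACGacggg
Dnajc3 (chr15:102432529-102432557, plus strand): caaagCCAATCAGCGCCAACCACGaccca
Hspd1 lies head to head with Hspe1, and the letters of both Hspe1 matches fall in its promoter on the other strand. The match of Dnaja1, which lies after the start site, is not printed. Hspa1a, Hspb1, Dnajb1 and Hsp90aa1 were not among the genes with a heat shock element match. Genes without a match may carry elements of other letters or outside the window, or had no promoter given. A match is a description of these letters and not a measured binding site, and the genes that carry one are given with their ratios below.

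Most chaperone probes gave a clear signal in hippocampus. Both channels of all 6 arrays were well above background, by the software's own test, for 73 of the 84 probes (86.9%), against 60.3% of all probes. The ratios were close to 0 in every comparison. On the log2 scale, the mean of a dye swap lay within 0.1 of 0 for 74 members in ME vs CONT (88.1%), 72 in IE vs CONT (85.7%) and 71 in IE vs ME (84.5%). For all probes these shares were 67.7%, 67.6% and 57.0%, and for all probes well above background in a comparison 80.3%, 80.2% and 76.4%. These shares were not matched for brightness. With probes well above background split into 5 equal bins, 35 members lay in the brightest in ME vs CONT and 6 in the dimmest. The mean ratios of all probes had an SD of 0.047 in the brightest bin and 0.17 in the dimmest. The median ratio of the members was -0.0024 with ME and -0.020 with IE, and -0.019 in IE vs ME. The medians of all probes were 0, 0 and -0.0016.

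A call of higher needed a Cy5/Cy3 ratio of 1.5 or more where the first-named group carried Cy5 and of 0.75 or less after the swap, and a call of lower the opposite, with the software's p, which compares a pair of pools on 1 array, below 0.01 on both. In ME vs CONT 0 of the 84 members were called, where 0.122% of all probes with a ratio were. In IE vs CONT 0 were called, against 0.0293%, and in IE vs ME 0, against 0.0732%. With shares this low, 0 of 84 is near the background and says nothing particular to chaperones. Without the p threshold the count was also 0 in each comparison, where 0.987%, 0.667% and 1.06% of all probes passed.

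**Figure D1:**
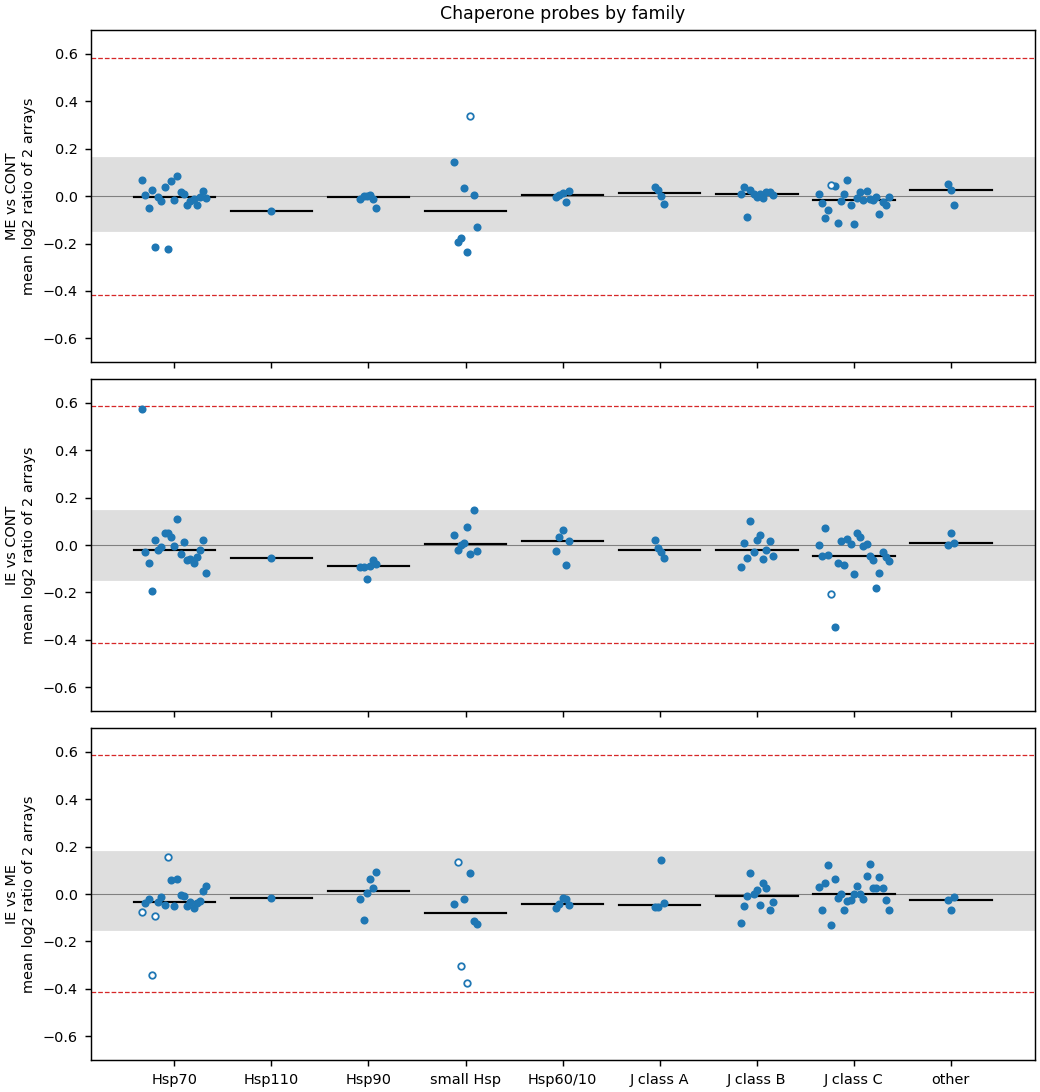
Mean log2 ratio of the dye swap (vertical axes) for each chaperone probe with a ratio, by family (horizontal axis), in the 3 comparisons (a panel each). Filled points passed the software's background test in each of 4 readings and open points did not, black lines are medians of the points shown, the grey band holds the 5th to 95th percentile of all probes well above background, and red dashed lines mark ratios of 1.5 and 0.75. Most points lie within the grey band, and the highest, a probe of Hspa12a with IE, has a mean of 0.57.

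The absence of calls was set against what the arrays could resolve. A joint limma fit of all 6 arrays, with coefficients for both running groups and for each slide's dye, took 82 members and 35511 probes in all. Its 95% intervals cover the error between arrays, which was taken as that of hybridizing the same pools and not as variation between rats. In this fit, the interval lay wholly between ratios of 0.75 and 1.5 for 77 members in ME vs CONT, 75 in IE vs CONT and 75 in IE vs ME (93.9%, 91.5% and 91.5%). For all probes of the fit these shares were 78.2%, 78.5% and 77.2%, again not matched for brightness, so the higher shares of the members say nothing particular to chaperones. The median interval of a member reached 0.10 to either side on the log2 scale. The members whose interval passed these limits in any comparison were probes of Dnajc13, Hspa12a, Hspa12b, Hspb3 and Hspb7, and the widest interval, that of an Hspb7 probe, reached 0.66 to either side. For these the arrays did not resolve ratios of 1.5 or 0.75. With the joint limma fit, 0 members had an adjusted p below 0.05, as did 0 of all probes. At an unadjusted p below 0.05 there were 3, 4 and 4 members, or at most 4 of 82, where 8.99%, 8.23% and 10.2% of all probes had one.

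The main heat-inducible Hsp70 is encoded by Hspa1a and Hspa1b, neighbours on chromosome 20 with nearly identical coding sequences, so a probe may read both. Hspa1a was read by a probe printed as 10 spots (A_44_P1042876, rn3 chromosome 20, 3958091 to 3958150). Its log2 ratios on the arrays were 0.13 and -0.17 with ME, 0.16 and -0.18 with IE, and 0.14 and -0.16 in IE vs ME. The first array of each swap was positive and the second negative, so Cy5 was brighter on each of the 6 arrays and the means were -0.019, -0.0091 and -0.012. The SD between its spots was 0.022 to 0.041 on an array, less than the difference between the arrays of a swap. The other Hspa1a probe (A_44_P109342) had means of 0.040 ± 0.16, 0.053 ± 0.28 and -0.046 ± 0.079. Hspa1b (A_44_P532958) was not well above background in any reading, and the software gave it no ratio other than 0. For Hspa1l, a relative expressed mainly in testis, the arrays gave -0.47 and 0.027 with ME and -0.012 and 0.11 with IE, with all 4 readings well above background in both.

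Hsc70 (Hspa8), the constitutive cytosolic Hsp70 and one of the brightest members, was read by 4 probes on chromosome 8. The brightest (A_44_P452492) spans 2 pieces of the genome (rn3 chromosome 8, 43795980 to 43796293), and its sequence is shown because it stands beside the most discordant Hsp70 probe below.
Hspa8 probe A_44_P452492: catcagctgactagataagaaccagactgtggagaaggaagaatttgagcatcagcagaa
With ME this probe had -0.045 and 0.036, with IE -0.10 and 0.062, and in IE vs ME -0.20 and 0.14. The arrays of each swap took opposite signs. Over the 4 probes the means lay between -0.038 and -0.0041 with ME, between -0.073 and -0.020 with IE, and between -0.058 and -0.028 in IE vs ME. All 4 probes of Hspa8 were thus slightly below 0 in every comparison, by less than the SD between arrays each time.

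BiP (Hspa5, A_44_P1054213, rn3 chromosome 3, 13684111 to 13684170) had -0.13 and 0.054 with ME, -0.14 and 0.017 with IE, and -0.20 and 0.10 in IE vs ME. Its means of -0.036 ± 0.13, -0.061 ± 0.11 and -0.049 ± 0.22 were all smaller than their SD. Mortalin (Hspa9, named Hspa9a on the array), the Hsp70 of mitochondria, was read by a bright probe (A_43_P15754) with means of 0.020 ± 0.045, 0.021 ± 0.021 and 0.014 ± 0.087, and by a dim one (A_44_P315742) with -0.0065 ± 0.0037, -0.12 ± 0.024 and 0.033 ± 0.063. With IE the dim probe was below 0 on both arrays (-0.10 and -0.14) and the bright one was not. Hspa2, another Hsp70, had means of 0.063 ± 0.092, 0.035 ± 0.035 and 0.061 ± 0.23.

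Hspa4 is an Hsp110-like exchange factor that the array's naming puts with Hsp70. One of its probes (A_44_P476830, rn3 chromosome 10, 38755350 to 38755409) was above 0 on both arrays with ME (0.060 and 0.11) and with IE (0.079 and 0.14). Its means, 0.084 ± 0.035 and 0.11 ± 0.042, were the highest of the Hsp70 probes well above background with ME and, after the Hspa12a probe below, with IE. The comparisons share the CONT pool. The other and brighter probe of Hspa4 (A_42_P625181, 38712123 to 38712182) had -0.016 ± 0.071 and -0.0054 ± 0.16, so the probes of this gene disagreed. Hsph1, the Hsp110 by name (A_44_P121374), had -0.064 and -0.060 with ME and -0.037 and -0.076 with IE. These agreed in sign between arrays and gave means of -0.062 ± 0.0023 and -0.056 ± 0.027. In IE vs ME the arrays of Hsph1 had 0.083 and -0.12.

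Hspa12a, a distant member of the Hsp70 family found in brain, held the most discordant probe. Probe A_43_P20751 (rn3 chromosome 1, 265520367 to 265521355, minus strand, 2 pieces of the genome) has the following sequence, shown because its ratio followed the dye.
Hspa12a probe A_43_P20751: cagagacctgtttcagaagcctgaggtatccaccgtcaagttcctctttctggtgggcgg
On the arrays it had 1.65 and -1.51 with ME, 1.97 and -0.83 with IE, and 1.43 and -1.58 in IE vs ME, with p between 2.1e-12 and 0.00022 on the arrays of the first 2 comparisons. Cy5 was brighter on all 6 arrays, whichever pool carried it. Of the other probes of Hspa12a, A_44_P182158 and A_44_P256786 had means between -0.051 and 0.0036 with ME and, with IE, between -0.076 and -0.028, and the dim A_44_P457890 had 0.024 ± 0.028 and -0.19 ± 0.39. The mean of 0.57 ± 1.98 of A_43_P20751 with IE, the highest of all members, is therefore smaller than its spread. The related Hspa12b (A_44_P166244), found in endothelium, had -0.34 and -0.087 with ME and -0.29 and 0.34 with IE, so its mean of -0.21 ± 0.18 with ME had no counterpart with IE (0.023 ± 0.45). The GC content of A_43_P20751 is 55.0% and that of the Hspa8 probe above 43.3%.

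Dye bias of this kind was counted for all members. Past the same ratio and p limits, but with 1 dye brighter throughout a swap, lay 1 member in ME vs CONT and 1 in IE vs CONT, where 0.877% and 0.903% of all probes did. The member was the Hspa12a probe each time. In IE vs ME there were 2, Hspa12a and Hspb9, against 4.18% of all probes. Past these limits in all 3 comparisons, with Cy5 brighter, lay 1 member and 11 of all 41012 probes.

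**Figure D2:**
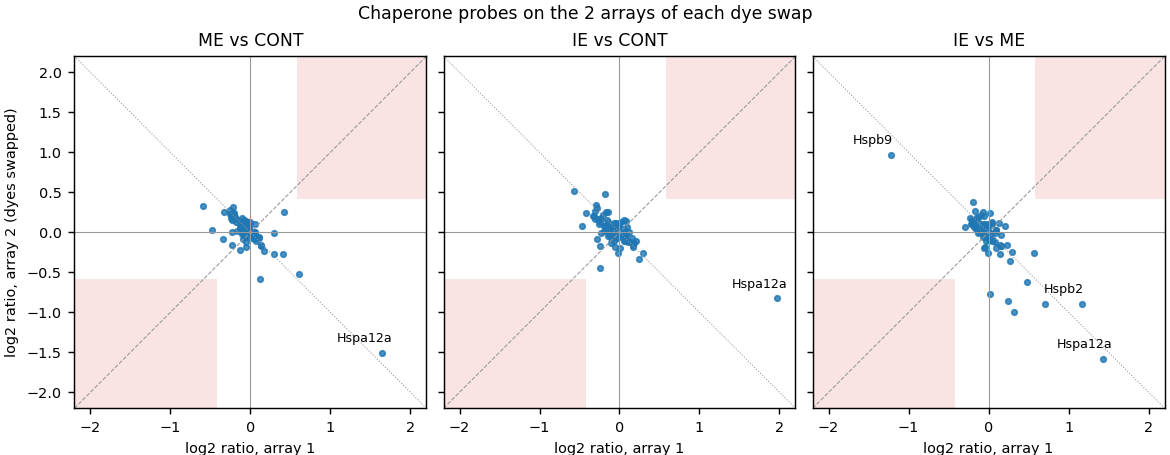
Log2 ratio of each chaperone probe on array 1 (horizontal axis) and on array 2 with the dyes swapped (vertical axis), both turned to the first-named group over the second, in the 3 comparisons. A difference between pools puts a point near the dashed diagonal and dye bias near the dotted one, and the shaded corners hold the ratio limits of a call. No point lies in a shaded corner, and the Hspa12a probe lies far to the lower right each time.

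The small ratios also followed the dye more than the pools. Among the 73 members well above background in all readings, the turned ratios of the arrays of a swap had a Pearson's r of -0.81 in ME vs CONT, -0.63 in IE vs CONT and -0.83 in IE vs ME across probes, which share arrays and are not independent. Across the 24716 such probes of the array r was -0.53, -0.61 and -0.63. Differences between pools raise r and dye bias lowers it, so its sign shows only which of these parts was larger across the probes. The difference between the arrays divided by 2 leaves out the ratio that both arrays share. It holds dye bias, hybridization error and, if the records mean separate pools, also the difference between those pools. Its SD across these members was 0.13, 0.15 and 0.18, while their mean ratios had an SD of 0.044, 0.070 and 0.056.

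Against CONT, Hsp90 was the only chaperone family of more than 1 probe with all its probes on one side of 0, and this held with IE. The array names its genes Hspca (today Hsp90aa1, the stress-inducible cytosolic form) and Hspcb (Hsp90ab1, the constitutive one). Their 6 probes were all below 0 with IE, between -0.14 and -0.061, with a median of -0.089, which was -0.055 in the joint limma fit. For Hsp90aa1 the arrays of IE vs CONT gave -0.11 and -0.073 at A_44_P114308, 0.0085 and -0.20 at A_44_P135339, -0.018 and -0.26 at A_44_P261874, and -0.070 and -0.11 at A_44_P299870. All but 1 of these readings were below 0, and 4 of the 6 Hsp90 probes had both arrays below 0. The constitutive Hsp90ab1 had -0.33 and 0.21 at A_44_P116130 and -0.13 and -0.025 at A_44_P287194.

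The other comparisons did not show this shift. With ME the 6 Hsp90 probes lay between -0.051 and 0.0038, with a median of -0.0053, and in IE vs ME between -0.11 and 0.093, with a median of 0.014. The ratios against CONT differed by a median of -0.084 between IE and ME over these probes, and the arrays that set IE against ME directly gave 0.014. All 6 probes are in the brightest of 5 equal bins of probes well above background, whose ratios with IE had a median of 0.0034 and an SD of 0.046 over 5749 probes. A fall of 0.089 on the log2 scale is far less than the limits of a call, and in the joint limma fit the 95% interval reached above 0 at each of the 6 probes, with values for IE between -0.10 and -0.036. Hsp90b1, the Hsp90 of the endoplasmic reticulum, stands on the array under the older name Tra1 and is no member by the rule. Its probes gave -0.091 ± 0.11 and -0.093 ± 0.032 with IE, and -0.0032 ± 0.10 and 0.071 ± 0.099 in IE vs ME.

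**Figure D3:**
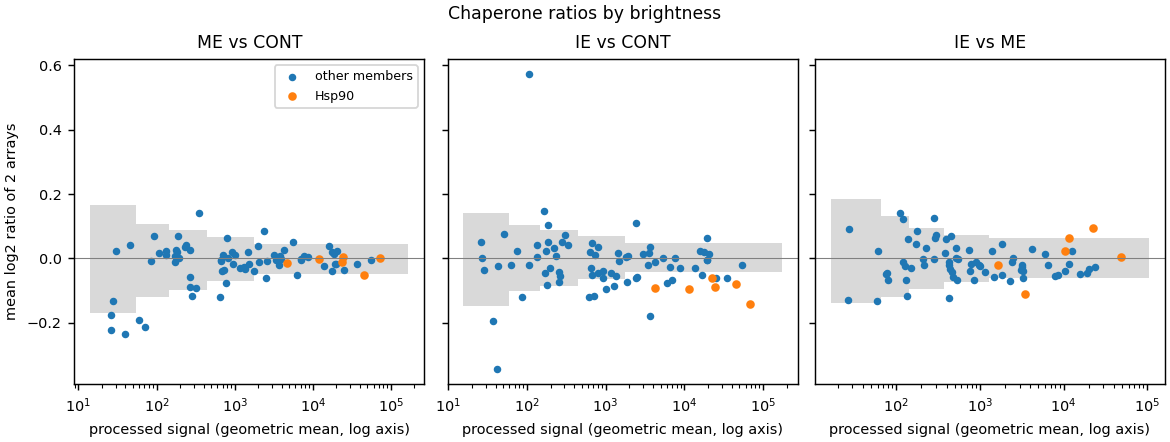
Mean log2 ratio of the dye swap (vertical axes) against the processed signal, as the geometric mean over the 4 readings (horizontal log axes), for chaperone probes well above background in the 3 comparisons. Grey blocks show the median ± SD of all such probes in each of 5 equal bins of brightness. Hsp90 probes (orange) all lie below 0 in IE vs CONT and on both sides of 0 in IE vs ME.

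Hsp60 and Hsp10 of mitochondria stayed close to 0. The 4 probes of Hspd1 and 1 of Hspe1 lay between -0.026 and 0.024 with ME, between -0.084 and 0.064 with IE, and between -0.059 and -0.017 in IE vs ME. At the brightest Hspd1 probe (A_44_P535742) the arrays gave 0.062 and -0.035 with ME and 0.12 and 0.0068 with IE. Hspe1 (A_43_P11636) gave 0.10 and -0.057 with ME and 0.068 and -0.038 with IE. In IE vs ME all 5 probes were below 0, by a median of -0.042, and for 1 of them, Hspe1, both arrays were.

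Of the 8 probes of small heat shock proteins, 7, 8 and 5 were well above background in all readings of ME vs CONT, of IE vs CONT and of IE vs ME. Within 0.1 of 0 lay 2 of the 8 with ME and 7 with IE, and 3 in IE vs ME. Hspb1 (Hsp27), which protects actin filaments and is found in glia and vessel walls, was printed as 10 spots (A_44_P992908, rn3 chromosome 12, 21898758 to 21898928). With ME it had 0.29 on the first array, with spots between 0.24 and 0.35, and -0.0032 on the second, with spots between -0.17 and 0.11. Its mean of 0.14 ± 0.21 was the highest with ME among members well above background, and only 1 of the arrays showed it. With IE it had 0.16 and -0.071, and in IE vs ME 0.013 and -0.095. Markers of vascular smooth muscle (5 of 6 genes found, 7 probes) had medians of 0.58 with ME and -0.031 with IE, and -0.54 in IE vs ME, and 1 of them, Myh11, was called higher with ME. They ranged from 0.070 to 1.15 with ME. The highest, Cnn1, had 0 of 4 readings well above background, and the next was a Myh11 probe at 0.69. The part of these cells in the ratios of Hspb1 was not tested. Hspb6 (Hsp20), a relative of smooth muscle, had means of 0.035 ± 0.038, 0.0077 ± 0.037 and -0.021 ± 0.11.

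Hspb8, a partner of Bag3 in the removal of misfolded proteins, had -0.20 and 0.21 with ME, -0.18 and 0.48 with IE, and -0.30 and 0.068 in IE vs ME. The arrays of each swap disagreed in sign. Hspb2, known from muscle, had -0.23 and -0.16 with ME, 0.026 and -0.064 with IE, and 1.16 and -0.89 in IE vs ME, where 2 of its 4 readings were well above background. Hspb7, the cardiovascular form, had 0.12 and -0.59 with ME at A_43_P15812, while its other probe (A_44_P498937) gave 0.42 and 0.25. The means of these probes of 1 gene thus had opposite signs, with 4 of 4 readings well above background at the first and 3 of 4 at the other. Hspb9, known from testis, had -1.22 and 0.97 in IE vs ME, with Cy3 brighter on both arrays. Over the family, the median was -0.064 with ME and 0.0046 with IE, and -0.078 in IE vs ME, and the median SD between arrays was 0.17, 0.050 and 0.48.

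J-domain proteins of class A, which resemble bacterial DnaJ over their whole length, were read by 4 probes. Dnaja1, the main cytosolic partner of Hspa8, had -0.10 and 0.18 with ME, -0.070 and 0.11 with IE, and -0.14 and 0.033 in IE vs ME. Its means were 0.038 ± 0.20, 0.022 ± 0.13 and -0.055 ± 0.12. Dnaja3, of mitochondria, had 0.21 and 0.077 in IE vs ME, the highest mean there among members well above background (0.14 ± 0.092), and 0.00017 ± 0.27 with ME and -0.031 ± 0.29 with IE.

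Class B has the heat-inducible Dnajb1 (Hsp40). Its probe A_43_P17082 (rn3 chromosome 19, 26219456 to 26219515) had -0.059 and 0.078 with ME, -0.14 and -0.046 with IE, and -0.056 and -0.19 in IE vs ME. Both arrays were below 0 in both comparisons of IE, with means of -0.094 ± 0.068 and -0.12 ± 0.095. The second probe of Dnajb1 (A_44_P309780), the brighter of the pair, had means of 0.0073 ± 0.061 and -0.052 ± 0.084 there. Dnajb6, which keeps polyglutamine proteins from aggregating, had means between -0.059 and 0.046 at both probes, with SDs of 0.31 to 0.41. Both Dnajb5 probes had means between -0.047 and 0.043 in all 3 comparisons.

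Some class B members lie elsewhere in the cell. Dnajb9 (ERdj4), a target of the unfolded protein response, had means between -0.066 and 0.019 over its probes. Dnajb13, a part of the axoneme of motile cilia and sperm tails, had 0.050 and 0.16 with IE and 0.043 and 0.13 in IE vs ME, above 0 on all 4 arrays, and -0.033 and 0.085 with ME. Its means were 0.10 ± 0.074, 0.087 ± 0.062 and 0.026 ± 0.083. For the list of ependyma and motile cilia markers (4 of 7 genes found, 5 probes), 0 probes were called. The median was -0.18 with ME and -0.054 with IE, and 0.11 in IE vs ME, ranging from -0.13 to 0.53 with IE. The highest with IE, Spag6, had 0 of 4 readings well above background, and the next was Foxj1 at 0.087. The part of these cells in the ratio of Dnajb13 was not tested.

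Class C proteins share only the J domain. Dnajc3 (A_44_P415518, rn3 chromosome 15, 103930873 to 103930932), which quiets the kinase PERK, had -0.056 and -0.18 with ME and -0.057 and -0.18 with IE, below 0 on all 4 arrays. Its mean was -0.12 ± 0.088 and -0.12 ± 0.089, and in IE vs ME 0.0012 ± 0.039. Both ratios rest on the same CONT pool. In the joint limma fit the 95% interval of Dnajc3 was -0.19 to -0.045 with ME and -0.19 to -0.044 with IE, below 0 before any adjustment over the probes. Dnajc3 was among the 3 members with ME and the 4 with IE at an unadjusted p below 0.05 in this fit. Of all probes in the fit, 8.99% with ME and 8.23% with IE had such a p, and no member had an adjusted p below 0.05. With IE intervals also excluded 0 at A_44_P476830 of Hspa4 (0.040 to 0.20), A_43_P17082 of Dnajb1 (-0.18 to -0.021) and Dnajb13 (0.030 to 0.18). Among the 4 such members in IE vs ME were Dnajb1 (-0.20 to -0.037), Dnajb13 (0.0078 to 0.16) and A_44_P135339 of Hsp90aa1 (-0.21 to -0.0054), where 10.2% of all probes had such a p. The brighter probes of Hspa4 and Dnajb1 had -0.026 and 0.00085 with IE in this fit, so the probes of these genes disagreed.

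Dnajc13 (RME-8), an endosomal protein, had the lowest mean of a member well above background in IE vs CONT. At A_44_P445903 (rn3 chromosome 8, 109291527 to 109292744) the arrays gave -0.24 and -0.45 with IE, -0.057 and 0.14 with ME, and 0.094 and 0.029 in IE vs ME. The mean with IE was -0.34 ± 0.14, while the direct arrays had 0.061 ± 0.046. A second probe (A_44_P147622) gave -0.041 ± 0.011 with IE and 0.12 ± 0.0060 in IE vs ME. Its remaining probe (A_44_P314398) had -0.24 and -0.17 with IE, where 3 of its 4 readings were well above background, and -0.0075 and -0.26 in IE vs ME. The sign in IE vs ME thus differed between the probes of Dnajc13. Dnajc7 (A_43_P22124), which binds both Hsp70 and Hsp90, had -0.28 and -0.084 with IE and -0.14 and 0.18 in IE vs ME.

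Among the synaptic members of class C, auxilin (Dnajc6) was read by 4 probes on chromosome 5 with means between -0.017 and 0.023 with ME, between -0.061 and 0.0052 with IE, and between -0.020 and 0.13 in IE vs ME. Its brightest probe (A_42_P536403) had 0.072 and -0.11 with ME, 0.085 and -0.096 with IE, and 0.015 and -0.054 in IE vs ME. Cysteine-string protein (Dnajc5), which guards synaptic vesicle fusion proteins, had means of 0.019 ± 0.086, 0.034 ± 0.012 and -0.00015 ± 0.027. Dnajc18 had 0.41 and -0.27 with ME, and Dnajc5g, known from testis, was not well above background in any reading and had no ratio other than 0.

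**Figure D4:**
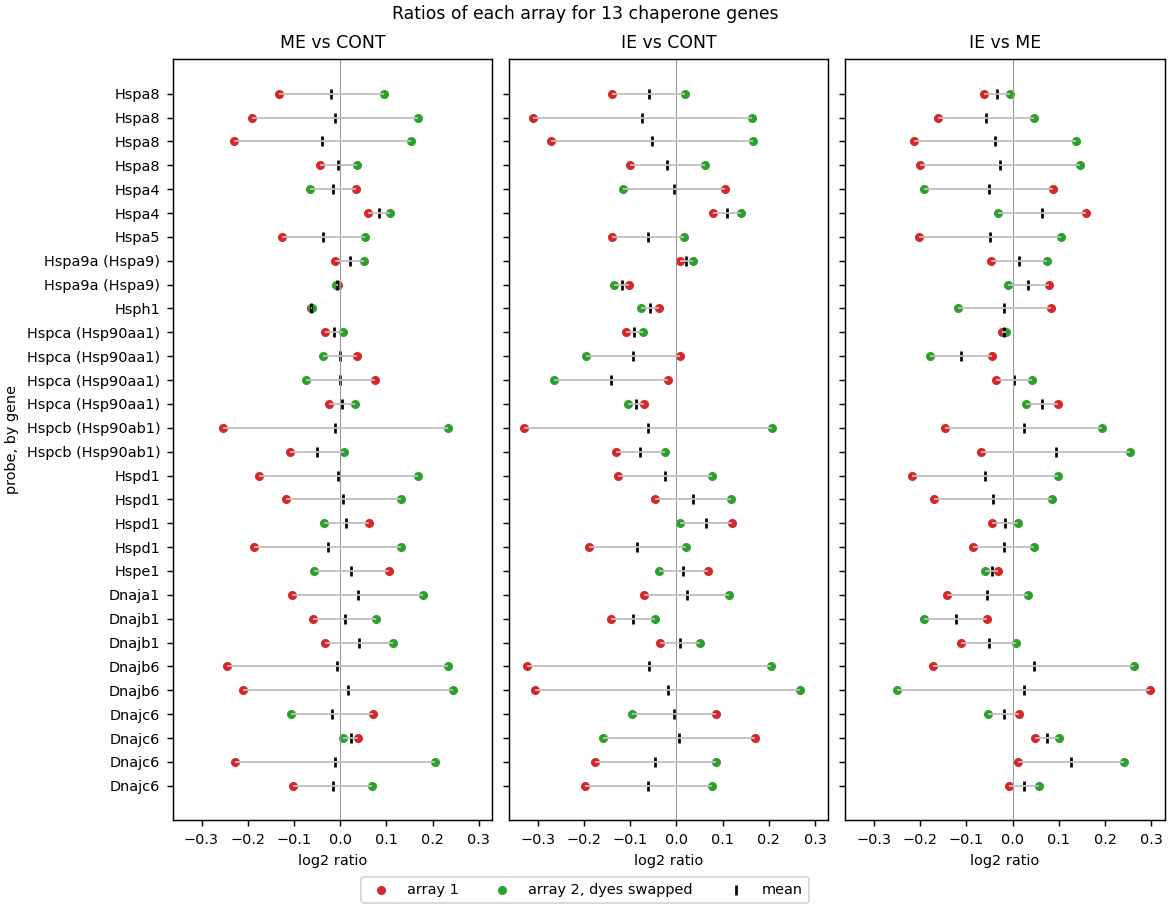
Log2 ratio on each array (horizontal axes) for the probes of 13 chaperone genes (vertical axis, 1 row per probe), with array 1 in red, array 2 with the dyes swapped in green and their mean as a black tick, in the 3 comparisons. The arrays of a swap lie on opposite sides of 0 at most probes and the means lie close to it.

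The 5 genes with a heat shock element in the searched window, Dnaja1 included, were read by 11 probes. In IE vs ME all 11 lay below 0, between -0.059 and -0.017, where 53 of the 84 members were below 0. The arrays of this swap took opposite signs at most of them, as at Hsph1 (0.083 and -0.12) and Dnaja1 (-0.14 and 0.033). Both arrays were below 0 only at Hspe1 and at A_43_P12417 of Hspa8. Apart from Hspe1, each of these means was smaller than its SD between arrays. Against CONT they lay on both sides, with 7 of 11 below 0 with ME, between -0.062 and 0.038, and 7 of 11 below 0 with IE, between -0.084 and 0.064, where 44 and 49 of the 84 members were. The 4 Hspa8 probes and the 4 Hspd1 probes share a target, so the 11 probes are not independent. Of the genes with an endoplasmic reticulum stress element, Hspa5 had -0.036, -0.061 and -0.049 and Dnajc3 -0.12, -0.12 and 0.0012 in the 3 comparisons.

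The proteins that work with these chaperones were read from lists of heat shock factors and co-chaperones (35 of 42 genes found, 49 probes), of the unfolded protein response (17 of 30 genes, 23 probes) and of the cytosolic chaperonin TRiC with prefoldin (10 of 15 genes, 15 probes). In each comparison 0 of their probes were called, whether or not the p threshold was applied. The co-chaperone list had medians of -0.0080 with ME and -0.021 with IE, and -0.0032 in IE vs ME, the unfolded protein response list -0.0030, -0.0067 and -0.012, and the chaperonin list -0.0077, -0.053 and -0.042. Hsf1 itself had means of -0.027 ± 0.0035, 0.080 ± 0.022 and 0.11 ± 0.11. Cryab, a small heat shock protein of glia and muscle that the rule does not take, had 0.095 and 0.11 with ME, 0.092 and 0.10 with IE, and -0.071 and -0.047 in IE vs ME. Bag3, which is induced with the heat shock proteins, had -0.030 ± 0.11, -0.028 ± 0.086 and 0.033 ± 0.27, and the chaperone of collagen, Serpinh1, had 0.040 ± 0.20, -0.040 ± 0.26 and -0.081 ± 0.20.

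A further 12 probes belong to chaperone genes that the array lists under other names, found through accession or an older name after the values had been seen. They include Hsp90b1 above, Hspa13 (Stch), whose mean was 0.021 ± 0.016 with ME and -0.010 ± 0.016 with IE, and Dnajc22, whose arrays gave 0.40 and 0.19 with ME. With these 12 probes added, 0 were called in any comparison.

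Markers of tissue beside the hippocampus differed between the pools. Of 14 probes of meningeal genes, 10 were called higher with ME, 0 with IE, and 9 were called lower in IE vs ME, and of 10 choroid plexus probes, 3, 4 and 2 were called higher. Their medians were 0.93, -0.027 and -0.94 for meninges, and 0.23, 0.48 and 0.40 for choroid plexus. Of 5 cerebellar probes 1, Gabra6, was called higher with ME and 0 in the other comparisons, with medians of 0.35, -0.016 and -0.46. The list of hippocampal neurons (9 of 10 genes found) had all 16 probes well above background on the arrays against CONT. It had 0 probes called, as did astrocytes and microglia, with medians between -0.017 and 0.020 for these 3 lists, and oligodendrocyte genes 0 called, with medians between -0.022 and 0.068. The share of meningeal, vascular, cerebellar and choroid plexus RNA in the ratios of single chaperones was not tested. In RNA of whole hippocampus, fewer cells of a type and less RNA per cell cannot be told apart.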

How the data were processed

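Hippocampal RNA of 3 pools was compared on 6 two-colour 60-mer arrays. The authors extracted spots with Agilent Feature Extraction, 9.5.3.1 for the arrays against CONT and, per the file headers, 11.0.1.1 for IE vs ME. The log10 ratio of Cy5 over Cy3 deposited by the authors is background-subtracted and LOWESS dye-normalized. The deposited p-value is that of the error model in the software, for 1 array. Each deposited signal, raw or processed, is a spot intensity on a linear scale. In the value table by the authors stand log10 ratios of processed signals, those of the swapped arrays with their sign reversed.

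Control features and spots marked as outliers were left out, spots of a probe averaged, p taken as the median over spots, and log10 turned to log2, first-named group over second. Ratios that the software set to 0 were kept as 0. Per array, 66.5% to 74.4% of spots were well above background in both channels. The ratio and p limits of a call were taken from the paper's methods, which do not spell out how the arrays of a swap are combined. That both arrays must pass was set here. This rule called 50 of all probes in ME vs CONT and 12 in IE vs CONT, far fewer than the genes the paper reports as regulated. Joint fit: limma 3.58.1 in R 4.3.3, for probes with a measured ratio on all 6 arrays, with 2 residual degrees of freedom. Its error is that between arrays, taken as hybridizations of the same pools.

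The members and the gene lists were chosen with earlier results of these data known. Named probes were to be those called, those past the ratio limits and well above background, the 4 highest and 4 lowest of each comparison among members well above background, and all probes of a fixed list of well-known chaperones. Hspb3, Hspa13, Hsp90b1, Dnajc22, Dnajc5g, the second Hspb7 probe and the list genes given with values were named after their values were seen. All 84 member probes were matched to a present RefSeq name (GRCr8), 53 by accession and 31 by name. Alternatives were each array alone, the joint fit, the mean fold of a pair, 1.5-fold either way, no p threshold, bright probes only, normexp (offset 50) with loess, loess on signals not background-subtracted, the value table, and outlier spots kept. Probe positions are those of the array design (rn3).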

Additional observations from a re-analysis of the deposited data

Results flagged for a closer look

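For 2 member probes, both arrays with ME lay on one side of 0 and both arrays with IE on the other, a difference that was not tested. How many of all probes show this pattern was not counted, so the number says nothing particular to chaperones. Dnajc11, of mitochondria, had -0.091 ± 0.0030 with ME (-0.093 and -0.089) and 0.072 ± 0.076 with IE (0.018 and 0.13). For Dnajc11 the direct IE vs ME arrays gave 0.045 ± 0.081 (-0.012 and 0.10). The Hspb7 probe A_44_P498937 had 0.34 ± 0.12 with ME, with 3 of 4 readings well above background, and -0.036 ± 0.024 with IE, and the direct arrays gave 0.091 ± 0.41 (-0.20 and 0.38). The other Hspb7 probe, A_43_P15812, had the opposite sign with ME, with a mean of -0.23.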

How the results depend on the processing

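No paired analysis was possible because every comparison rests on a single pair of pools. The count of heat shock protein and J-domain probes past the rule was 0 in each comparison, and it was also 0 without the p-value condition, on the mean fold, at 1.5-fold in either direction, over bright probes alone, after normexp or plain loess, in the deposited value table, with outlier spots kept, in the joint limma fit, and with the 12 probes under other names, a setting chosen after seeing the data. Read on 1 array without its swap, the count ranged from 1 to 1 probe in ME against CONT, from 1 to 1 in IE against CONT and from 2 to 3 in IE against ME. The log2 ratio of Hsph1, the only probe that its name puts in Hsp110, was -0.062 in ME against CONT. It became -0.049 with normexp and loess, -0.066 with loess on signals without background subtraction and -0.054 in the joint fit, and the cause was not tested. The other family medians were set against an SD between arrays that was often larger than the median itself, so their staying within it says nothing about stability. The Hsp90 median in IE against CONT was -0.089, and -0.055 in the joint fit. In ME against CONT it was -0.0053, and -0.041 in the joint fit. The small heat shock protein median in ME against CONT ran from -0.13 over bright probes to 0.023 with normexp, and 9 of 30 medians changed sign under some setting that kept both arrays. On an array, 66.5 to 74.4% of spots were well above background, and of the 8 small heat shock protein probes 7, 8 and 5 were so in all readings of the 3 comparisons.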
